A study of Mus musculus with 12 samples.

Results

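The 7 genes described here encode the Fc gamma receptors of the mouse (Fcgr1, Fcgr2b, Fcgr3 and Fcgr4), their shared signalling chain (Fcer1g) and a phagocytosis checkpoint (Cd47 and its receptor Sirpa). They were chosen by name, as genes whose products bind therapeutic antibodies or control phagocytosis, out of 34678 gene symbols, and all 7 were measured in all 12 tumors. The 12 tumors grew from LLC1-shLkb1 cells in C57BL/6 mice. The study's methods describe its C57BL/6 mice as 5 to 8 weeks old and of both sexes, without the sex of these 12. Its main text describes such tumors under the skin and in the chest, and does not state the site of those sequenced. RNA of the whole mass was sequenced. LLC1 is a Lewis lung carcinoma cell line, and its Lkb1 (Stk11) gene was knocked down by a short hairpin RNA, which every arm shared. The mice of the 4 arms, with 3 tumors per arm, received vehicle with an IgG control antibody (clone 2A3), palbociclib (a CDK4/6 inhibitor, 100 mg/kg by mouth), anti-PD-1 (a checkpoint antibody, clone RMP1-14, 200 µg per mouse by intraperitoneal injection) or both drugs together, and their tumors were collected after 2 weeks. The control mice therefore also carried an antibody with an Fc part. The study's methods name no antibody for the arm given palbociclib alone. As described, palbociclib versus vehicle differs in injected IgG as well as in the drug. These cannot be told apart in that comparison, which also enters the palbociclib effect given below. The model is 1 knockdown line grown in mice, and its levels mix tumor cells with every other cell of the mass.

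Fc gamma receptors sit on macrophages, monocytes, neutrophils, dendritic cells and NK cells and bind the constant part of IgG. Fcgr1, the high-affinity receptor, and Fcgr3 and Fcgr4, which need clustered IgG, signal through the activating motif of the common gamma chain Fcer1g, which also stabilizes them at the membrane. Fcgr2b carries an inhibitory motif of its own and is the only inhibitory member, so the balance of activating to inhibitory receptors sets how a cell answers antibody-coated targets. Cd47, present on nearly all cells, engages Sirpa on myeloid cells and holds phagocytosis back.

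Fcgr2b (chr1:170958617-170976547, minus strand), Fcgr4 (chr1:171018920-171029761, plus strand), Fcgr3 (chr1:171051174-171064935, minus strand) and Fcer1g (chr1:171229572-171234365, minus strand) are neighbours on 1 chromosome (GRCm38, GENCODE M21). Fcgr1 (chr3:96282909-96293969, minus strand), Cd47 (chr16:49800533-49915010, plus strand) and Sirpa (chr2:129592835-129632228, plus strand) lie elsewhere. The promoters of the 3 activating receptors are shown because these genes had the largest palbociclib effects among the 4 Fc gamma receptors. Each is the 250 bases before a RefSeq start (GRCm38.p6), written 5′ to 3′ on the gene's strand. The windows lie at chr3:96293970-96294219 (minus strand), chr1:171059404-171059653 (minus strand, inside the GENCODE span of Fcgr3 given above) and chr1:171018676-171018925 (plus strand). Capitals mark matches on either strand to GAGGAA (the core of a site for ETS factors such as PU.1), to GAAA repeated after a gap of 2 bases (an interferon response element) or to TTC and GAA with a gap of 3 bases (a STAT element), and no matches overlap one another.
Fcgr1: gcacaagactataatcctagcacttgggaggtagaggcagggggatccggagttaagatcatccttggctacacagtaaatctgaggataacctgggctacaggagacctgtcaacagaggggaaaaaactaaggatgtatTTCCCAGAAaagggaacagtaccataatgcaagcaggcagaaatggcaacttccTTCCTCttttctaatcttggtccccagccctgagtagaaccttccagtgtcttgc
Fcgr3: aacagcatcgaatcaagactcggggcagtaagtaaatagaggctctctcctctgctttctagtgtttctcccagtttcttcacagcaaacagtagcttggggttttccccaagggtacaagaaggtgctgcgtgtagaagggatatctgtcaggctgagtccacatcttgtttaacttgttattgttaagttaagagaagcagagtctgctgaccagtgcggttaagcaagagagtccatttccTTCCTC
Fcgr4: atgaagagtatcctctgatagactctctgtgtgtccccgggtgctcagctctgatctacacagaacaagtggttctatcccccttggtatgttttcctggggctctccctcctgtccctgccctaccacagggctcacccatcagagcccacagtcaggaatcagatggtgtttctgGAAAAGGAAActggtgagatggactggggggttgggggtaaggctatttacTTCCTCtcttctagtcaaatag
Fcgr1, Fcgr3 and Fcgr4 each held GAGGAA, read as TTCCTC on the printed strand, as did 23.3% of 32851 RefSeq promoters of this length. In Fcgr1 it began 55 bases before the start, in Fcgr4 22 bases and in the printed Fcgr3 window 6 bases. Fcgr3 has another RefSeq entry, for which the match began 15 bases before the start. The interferon element stood only in Fcgr4 among the 6 genes searched (2.98% of all promoters), 73 bases before the start, and the STAT element only in Fcgr1 (7.02% of all promoters), 109 bases before it. These letters were not found in the Fcgr2b, Fcer1g and Cd47 windows, and Sirpa was not searched. A match is a string of letters and not a bound site. In GENCODE, 187 of the 250 bases of the Fcgr2b window lie in exons of its own transcripts, so that window was searched but is not printed, and 27 bases of the Fcgr3 window and 6 of the Fcgr4 window are exonic as well.

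Levels are given as FPKM, fragments scaled by transcript length and library size, which can be compared between genes. Over the 12 tumors the highest mean levels were those of Fcer1g and Fcgr4 (30.2 and 30.1 FPKM), followed by Fcgr3 (22.4), Fcgr1 (14.8), Cd47 (14.5), Fcgr2b (13.02) and Sirpa (8.33), and neighbours in this order overlapped in their ranges over the tumors. Each value rested on an estimated 116 to 2590 fragments, the lowest for Fcgr4 and the highest for Cd47, out of about 14800000 to 20400000 per tumor. Of the 50-base words in Fcgr3 transcripts 9.58% also occurred in Fcgr2b, whereas Fcgr1, Fcgr4, Fcer1g and Sirpa shared none with another gene. Reads from those words could have gone to either of the pair, and Fcgr2b exons also overlap an antisense gene, Gm38204.

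Some tumors stood apart from their arms. The macrophage markers (11 genes, among them Adgre1, Csf1r and C1qa) summed to 377 to 1679 FPKM in the vehicle arm, 1098 to 1856 in the palbociclib arm, 409 to 1389 in the anti-PD-1 arm and 861 to 2062 in the combination arm. Vehicle replicate 1 and anti-PD-1 replicate 1 were high in their arms and combination replicate 2 was low. Adipocyte genes reached 398 and 949 FPKM in palbociclib replicate 1 and combination replicate 1, skin genes reached 373 in palbociclib replicate 2, and muscle genes reached 187 and 173 in palbociclib replicate 3 and combination replicate 2. The fits given with the results left out each tumor singly and the 3 tumors with the most adipocyte or skin genes together. Palbociclib replicate 3, at 36.6 FPKM of adipocyte genes, stayed in the latter fit. The muscle tumors were not left out together, and the part of these genes in the results was not otherwise tested. B cell markers, which would mark another Fcgr2b-bearing cell, summed to at most 4.18 FPKM in any tumor. Of the epithelial markers, Krt8 was 62.0 to 276 FPKM, while Epcam did not exceed 1.81 FPKM. Stk11, the gene that the hairpin targets in every arm, was 7.90 to 11.5 FPKM, with no unmodified line to set it against.

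Among the activating receptors, Fcgr4 had the widest range. Its level was 26.0, 9.60 and 7.66 FPKM in the vehicle arm, 27.8, 47.0 and 60.4 in the palbociclib arm, 19.0, 5.71 and 6.40 in the anti-PD-1 arm and 72.5, 17.1 and 61.8 in the combination arm. Each palbociclib tumor exceeded each vehicle tumor, and 5 of 6 tumors given palbociclib with or without anti-PD-1 exceeded all 6 others, the exception being combination replicate 2. The palbociclib effect, which averages palbociclib minus vehicle and combination minus anti-PD-1, was 2.01 ± 0.45 (SE) on the log2 scale, a 4.04-fold higher level with a 95% interval of 2.02 to 8.08. In bulk RNA, more cells and more RNA per cell cannot be told apart. The difference did not pass after adjustment over all 15350 genes tested (limma, adjusted p = 0.0804).

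Fcgr1 was also high under palbociclib. Its level was 11.5, 5.18 and 5.07 FPKM in the vehicle arm, 21.9, 23.0 and 25.5 in the palbociclib arm, 21.0, 5.44 and 6.68 in the anti-PD-1 arm and 18.4, 10.4 and 23.3 in the combination arm. The palbociclib tumors lay close together and above all 9 tumors of the other arms except combination replicate 3, while anti-PD-1 replicate 1 reached the level of the palbociclib-treated tumors. The palbociclib effect was 1.31 ± 0.34 (SE, log2), a fold of 2.48 (95% interval 1.47 to 4.18), with an adjusted p = 0.0951 by limma.

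Fcgr3, the third activating receptor, was 24.7, 16.8 and 10.4 FPKM in the vehicle arm, 25.1, 32.3 and 29.9 in the palbociclib arm, 24.2, 9.55 and 10.7 in the anti-PD-1 arm and 34.7, 12.9 and 37.0 in the combination arm. The palbociclib tumors again exceeded every vehicle tumor, the closest pair by little. Its effect was smaller, 0.87 ± 0.32 (SE, log2), a fold of 1.82 (limma, adjusted p = 0.175).

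Fcer1g, the chain these receptors share, was 33.8, 22.1 and 14.7 FPKM in the vehicle arm, 29.1, 44.2 and 46.5 in the palbociclib arm, 32.0, 11.7 and 12.7 in the anti-PD-1 arm and 44.2, 25.5 and 45.4 in the combination arm. The arms overlapped, since palbociclib replicate 1 was below vehicle replicate 1. The palbociclib effect on Fcer1g was 0.98 ± 0.29 (SE, log2), a fold of 1.97 (limma, adjusted p = 0.123).

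The inhibitory receptor Fcgr2b had the smallest palbociclib effect of the 5 receptor genes. It was 16.9, 12.3 and 5.71 FPKM in the vehicle arm, 15.8, 23.0 and 15.8 in the palbociclib arm, 16.9, 4.75 and 6.30 in the anti-PD-1 arm and 15.3, 5.28 and 18.3 in the combination arm. The arms overlapped in all 5 pairs compared, and combination replicate 2 was at the level of the low anti-PD-1 tumors. Its palbociclib effect was 0.63 ± 0.40 (SE, log2), a fold of 1.55 whose 95% interval ran from 0.846 to 2.83 and thus held both no difference and a difference as large as that of Fcgr1 (limma, adjusted p = 0.381).

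Sirpa and its ligand Cd47 followed different orders over the tumors. Sirpa was 10.8, 3.88 and 3.55 FPKM in the vehicle arm, 10.2, 15.8 and 8.80 in the palbociclib arm, 10.1, 3.55 and 4.19 in the anti-PD-1 arm and 12.1, 5.73 and 11.1 in the combination arm. As for the receptors, vehicle replicate 1 and anti-PD-1 replicate 1 were the high tumors of their arms. The effect of palbociclib on Sirpa was 0.92 ± 0.35 (SE, log2), a fold of 1.89 (limma, adjusted p = 0.179). Cd47 was 11.8, 14.9 and 20.1 FPKM in the vehicle arm, 17.1, 12.7 and 15.1 in the palbociclib arm, 9.53, 12.1 and 22.2 in the anti-PD-1 arm and 12.7, 11.9 and 14.1 in the combination arm. The tumors lowest in Fc receptors within the vehicle and anti-PD-1 arms, replicate 3 and replicates 2 and 3, included those with the most Cd47. Its palbociclib effect was -0.06 ± 0.20 (SE, log2), and the 95% interval of the fold, 0.712 to 1.29, leaves room for a difference of that size in either direction (limma, adjusted p = 0.886).

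**Figure D1:**
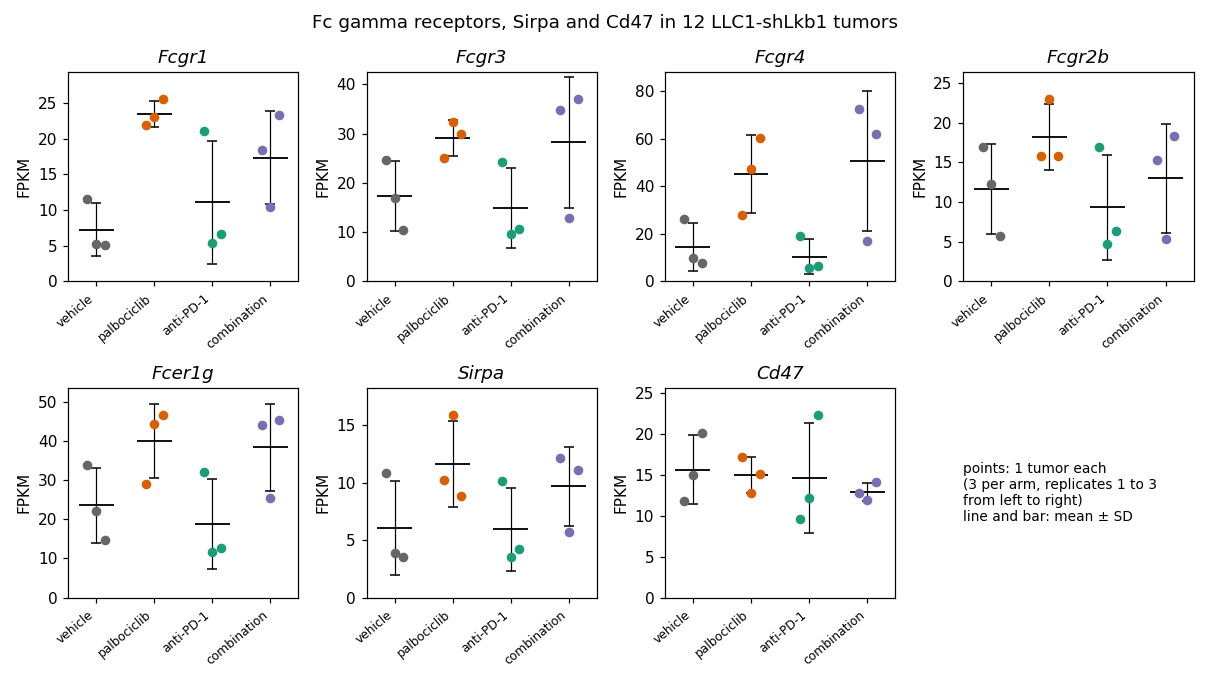
FPKM of each of the 7 genes (vertical axes from 0) in the 12 tumors by arm, with 1 point per tumor and the mean ± SD of 3 tumors. Fcgr1, Fcgr3 and Fcgr4 lie higher in all 3 palbociclib tumors than in all 3 vehicle tumors, combination replicate 2 is the low tumor of its arm for the receptors, and Cd47 shows no such order.

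Across the 7 genes, 0 passed the adjusted threshold of 0.05 for the palbociclib effect, where 0.313% of all genes tested did, and 5 had an unadjusted p under 0.05 in limma, all with a higher level, where 20.5% of all genes did in either direction, 14.1% with a higher and 6.44% with a lower level. These 5 were Fcgr4, Fcgr1, Fcer1g, Fcgr3 and Sirpa. The median difference over the 7 genes was 0.92 on the log2 scale beside 0.06 over all genes. The genes were measured in the same tumors and correlated with one another, so the 5 are not separate observations. For palbociclib against vehicle, 3 of 7 genes (Fcgr1, Fcgr3 and Fcgr4) were higher in every palbociclib tumor than in every vehicle tumor, against 12.9% of all genes. None of the 7 was separated in this way between combination and vehicle (10.8% of all genes) or between combination and anti-PD-1 (11.4%), and none was higher in all 6 palbociclib-treated tumors than in all 6 others (1.02%).

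The count of genes past the threshold turned on single tumors. Without vehicle replicate 1, 2 of the 7 genes passed (Fcgr1 with adjusted p = 0.0404 and Fcgr4 with adjusted p = 0.0301, limma). Without anti-PD-1 replicate 1, 3 passed (Fcgr1 with adjusted p = 0.0223, Fcgr4 with 0.0311 and Fcer1g with 0.0327), and without combination replicate 2 only Fcgr4 did (adjusted p = 0.0253). In these 3 fits the numbers of all genes that passed were 692, 758 and 264, beside 48 with all tumors. Leaving out any of the other 9 tumors gave 0 of the 7. Without the 3 tumors with adipose or skin genes, an alternative added after seeing the data that left only replicate 3, the tumor with muscle genes, in the palbociclib arm and 2 tumors in the combination arm, 0 of the 7 passed and the estimates were 2.07 ± 0.64 for Fcgr4, 1.33 ± 0.54 for Fcgr1, 1.04 ± 0.43 for Fcer1g and 0.43 ± 0.60 for Fcgr2b (SE, log2, the lowest adjusted p = 0.297).

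Against vehicle alone, Fcgr1 was 3.45-fold (1.79 ± 0.48, SE, log2) and Fcgr4 3.43-fold (1.78 ± 0.64) higher in the palbociclib arm, and these 2 had an unadjusted p under 0.05 in limma (13.8% of all genes did). Their adjusted p-values were 0.198 and 0.31, and 0 of 7 passed, beside 0.143% of all genes. With the combination against vehicle the same pair was higher, Fcgr1 2.43-fold and Fcgr4 3.40-fold, with adjusted p-values of 0.238 and 0.227. There 2 of 7 had an unadjusted p under 0.05 (17% of all genes) and 0 passed (0.013%). Against anti-PD-1, the combination had 4.75-fold more Fcgr4 (2.25 ± 0.64, SE, log2) and 2.20-fold more Fcer1g (1.14 ± 0.41), with adjusted p-values of 0.327 and 0.343 in limma. These were the 2 of 7 with an unadjusted p under 0.05 (11.8% of all genes), and 0 passed (0.00651%).

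For anti-PD-1 alone, the differences from vehicle ran from -0.48 for Fcgr4 to 0.44 for Fcgr1 on the log2 scale, with SEs of 0.28 to 0.64, and 0 of 7 genes passed or had an unadjusted p under 0.05 in limma, beside 0% and 8.4% of all genes. The anti-PD-1 effect averaged over both backgrounds was below 0 for all 7 genes, from -0.52 for Fcgr2b to -0.03 for Fcgr1. Its SEs were 0.20 to 0.45, and the median over all genes was also below 0, at -0.04. Again 0 of 7 had an adjusted p (0% of all genes) or an unadjusted p under 0.05 (6.77%) in limma. The differences between the combination and palbociclib alone ran from -0.64 (Fcgr2b) to -0.01 (Fcgr4), beside a median of -0.04 over all genes. In limma 0 of 7 genes had an adjusted (0.00651% of all genes) or unadjusted (4.52%) p under 0.05. The interaction, which asks whether the effect of palbociclib differed with anti-PD-1, was largest in size for Fcgr1 (-0.95 ± 0.68, SE, log2, limma, adjusted p = 0.924). It reached the threshold for 0 of 7 genes either adjusted (0% of all genes) or unadjusted (5.73%). Its SE was 0.39 to 0.91 over the 7 genes, and the 95% interval for Fcgr1, from -2.45 to 0.55, left both an equal effect and a large difference possible.

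The ratio of activating to inhibitory receptor genes was taken within each tumor. It is a ratio of RNA from the whole mass, where the genes can come from different cells. It therefore does not give the balance on any cell. The ratio of Fcgr4 to Fcgr2b (FPKM over FPKM) was 1.54, 0.783 and 1.34 in the vehicle arm, 1.77, 2.05 and 3.83 in the palbociclib arm, 1.12, 1.2 and 1.02 in the anti-PD-1 arm, and 4.74, 3.23 and 3.37 with the combination. All 6 palbociclib-treated tumors were above all 6 others, combination replicate 2 included, and of all genes tested 0.156% stood in this way relative to Fcgr2b. The geometric means were 1.17, 2.4, 1.11 and 3.72 in the order of arms just given. The summed activating receptors (Fcgr1, Fcgr3 and Fcgr4) over Fcgr2b gave 2.58 to 4.05 in the vehicle arm, 4.46 to 7.35 in the palbociclib arm, 3.78 to 4.36 in the anti-PD-1 arm and 6.66 to 8.21 in the combination arm. The palbociclib-treated tumors were again above the others, but narrowly, with 4.46 as their lowest value beside 4.36. This sum contains Fcgr4 and is not separate from the Fcgr4 ratio, and no share over all genes was computed for it. Both ratios kept this separation after quantile normalization of the tumors.

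The separation lay in Fcgr4 rather than in all activating genes. Fcgr3 over Fcgr2b ran from 1.41 to 2.45 in the palbociclib-treated tumors and from 1.37 to 2.01 in the others, and Fcer1g over Fcgr2b from 1.85 to 4.83 and from 1.8 to 2.57. Fcgr1 over Fcgr2b followed another order, being 0.68, 0.422 and 0.887 with vehicle, under 1 in each, and 1.0 to 1.96 in the 9 tumors of the 3 treated arms. Of the summed FPKM of the 4 receptors, Fcgr4 made up 27.1% ± 5.51 (SD, n = 3) in the vehicle arm, 38.1% ± 7.60 in the palbociclib arm, 22.4% ± 1.05 in the anti-PD-1 arm and 44.3% ± 7.04 in the combination arm. The Fcgr3 share was lower where that of Fcgr4 was higher, being 35.2% ± 3.64 and 34.3% ± 4.01 in the vehicle and anti-PD-1 arms and 25.4% ± 2.52 and 26.4% ± 1.85 in the palbociclib and combination arms. Shares of 1 sum constrain one another, so a larger Fcgr4 share lowers the others by construction. The level of Fcgr3 itself averaged 28.7 FPKM in the palbociclib-treated tumors and 16.1 in the others, with overlap. The Fcgr2b share was smallest in the combination, 11.8% ± 1.12, beside 23.0% ± 4.32 with vehicle. These ratios and shares are descriptions of 12 tumors and were not tested.

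**Figure D2:**
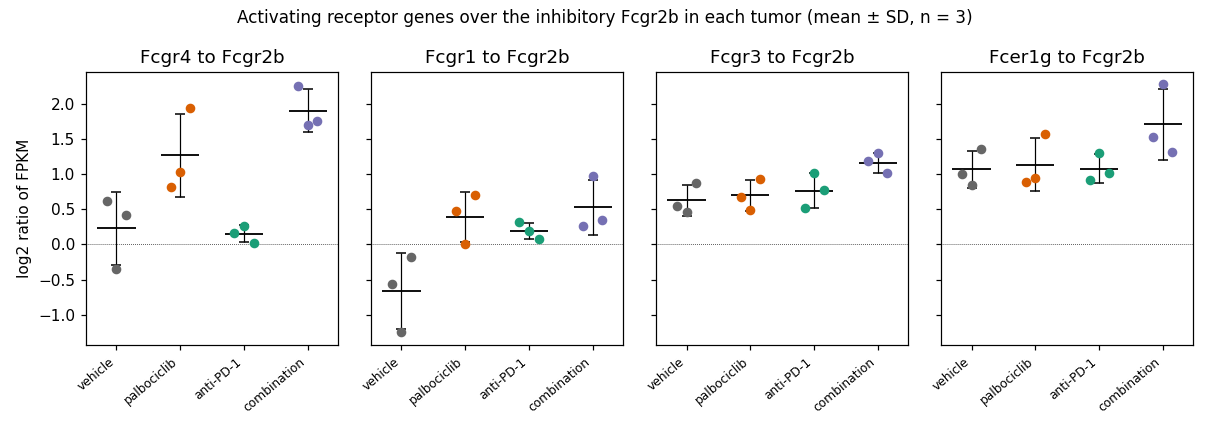
Log2 ratio of the FPKM of 4 activating genes to Fcgr2b within each tumor (vertical axis, log2 scale), by arm, with points for single tumors and the mean ± SD of 3. The Fcgr4 ratio lies between 1.77 and 4.74 on the linear scale in the 6 palbociclib-treated tumors and between 0.783 and 1.54 in the others, while the Fcgr3 and Fcer1g ratios overlap.

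The receptor levels went with those of macrophage genes, and for Fcgr4 and Fcgr1 more closely with other cell lists. Over the 12 tumors the mean log2 level of the 11 macrophage markers correlated with Fcer1g and Fcgr3 at Pearson r = 0.97 each, with Sirpa at 0.94, with Fcgr2b and Fcgr4 at 0.92 each and with Fcgr1 at 0.86, and with Cd47 at -0.50. After the arm means were subtracted r was 0.96 for Fcer1g, 0.91 for Fcgr4, 0.89 for Fcgr1 and -0.67 for Cd47. Fcgr4 had a higher r with the pan-leukocyte markers (0.97, and 0.95 within arms). With the T cell markers its r was 0.95, and 0.87 within arms. Fcgr1 had a higher r with the monocyte markers (0.96, and 0.92 within arms). Of the 11 macrophage markers 6 were higher and 1 lower at an unadjusted p under 0.05 for the palbociclib effect, beside 14.1% and 6.44% of all genes. After adjustment 0 passed (limma), and the median difference was 1.01 (log2). The lower marker was Cd14, at 22.5, 16.9 and 50.9 FPKM in the vehicle arm and 14.6, 18.1 and 8.56 in the palbociclib arm. The abundant Lyz2 (lysozyme), C1qb and C1qc differed by 1.01 ± 0.45, 1.52 ± 0.48 and 1.58 ± 0.50. C1qa, like C1qb and C1qc a chain of the complement protein C1q, which binds IgG, was 25.6 to 209.8 FPKM in the vehicle arm. It was 158 to 307 in the palbociclib arm (1.76 ± 0.53, SE, log2, limma, adjusted p = 0.123).

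With the macrophage marker level of each tumor as a covariate, the palbociclib effect was 0.94 ± 0.26 (SE, log2) for Fcgr4, 0.52 ± 0.21 for Fcgr1, 0.26 ± 0.12 for Fcer1g, 0.09 ± 0.18 for Sirpa, 0.08 ± 0.14 for Fcgr3, -0.35 ± 0.17 for Fcgr2b and 0.27 ± 0.20 for Cd47. Fcgr4 and Fcgr1 again had the largest estimates, and those of Fcgr2b and Cd47 changed sign. None of the 7 passed (limma, the lowest adjusted p = 0.482, for Fcgr4). Taken as the plain difference from the macrophage mean, Fcgr4 alone among the 7 was higher in all 6 palbociclib-treated tumors than in all 6 others, as were 0.13% of all genes. Since the covariate itself varied with the arms, the split between cell number and level per cell was not tested. No other cell list was used as a covariate, so these estimates do not set aside other leukocytes.

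**Figure D3:**
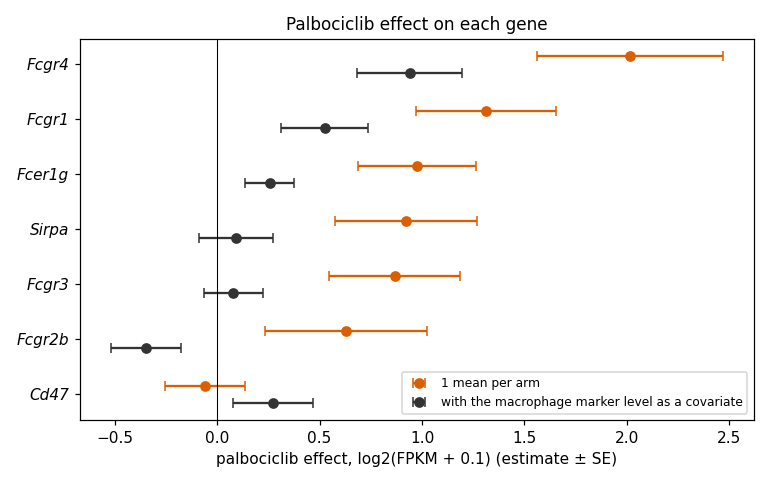
Palbociclib effect on each gene in log2(FPKM + 0.1) (horizontal axis, estimate ± SE from limma over 12 tumors), with 1 mean per arm in orange and with the macrophage marker level added as a covariate in dark grey. The Fcgr4 estimate is 2.01 in the first and 0.94 in the second, and Fcgr2b goes from 0.63 to -0.35.

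**Figure D4:**
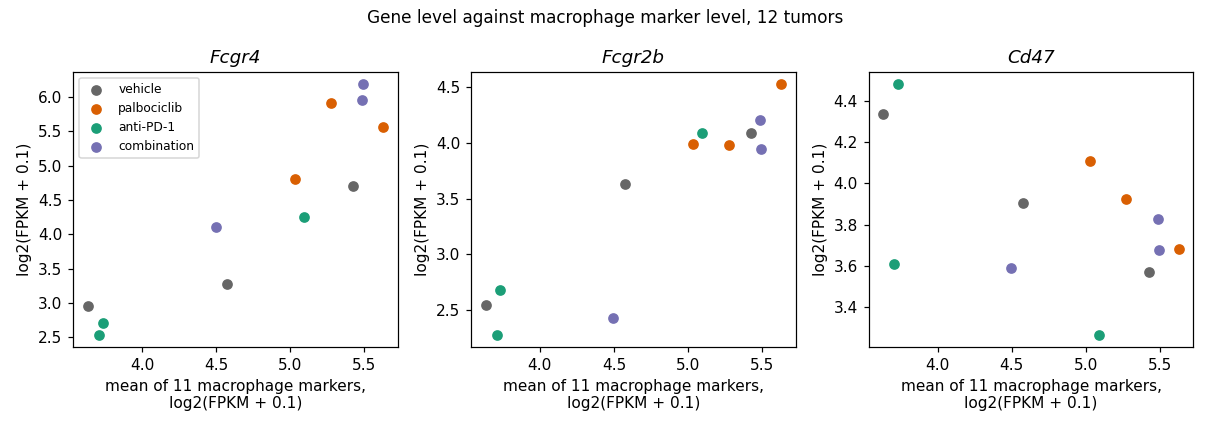
Level of Fcgr4, Fcgr2b and Cd47 (vertical axes, log2(FPKM + 0.1)) against the mean log2 level of 11 macrophage markers in each of the 12 tumors, coloured by arm. Fcgr4 and Fcgr2b go up with the markers (r = 0.92 each) and Cd47 goes down (r = -0.50), and relative to the markers Fcgr4 lies higher in the 6 palbociclib and combination tumors than in the 6 others.

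Other cells that carry these receptors were measured through their markers, whose counts at an unadjusted p stand beside 14.1% of all genes higher and 6.44% lower for the palbociclib effect. Neutrophils bear Fcgr3 and Fcgr4, and their 7 markers summed to 31.7 to 539 FPKM in the vehicle arm, 15.4 to 33.2 in the palbociclib arm, 47.5 to 276 in the anti-PD-1 arm and 14.2 to 88.8 in the combination arm. Of the 6 neutrophil markers tested, 4 were lower and 0 higher for the palbociclib effect at an unadjusted p under 0.05, with a median of -1.66 (log2), and 0 passed. S100a9, an abundant neutrophil calcium-binding protein, was 370.4 FPKM in vehicle replicate 3, the vehicle tumor with the least Fcgr3 and Fcgr4, and its difference was -2.27 ± 0.74, beside -1.96 ± 0.82 for S100a8, -1.90 ± 0.72 for Retnlg and -0.90 ± 0.46 for Csf3r. NK cells bear Fcgr3, and their 7 markers had a median of 0.65 with 2 higher at an unadjusted p under 0.05. Of 7 monocyte markers 4 were higher and 1 lower at that level (median 0.79), and of 6 dendritic cell markers 1 was higher, a share close to that of all genes (median 0.73), with 0 passing in either list. Of the 6 pan-leukocyte markers 5 were higher (median 0.73), of the 7 T cell markers 7 (median 1.46) and of the 6 endothelial markers 0, with 3 lower (median -0.40), and 0 passed in each. Mast cells use Fcer1g in the IgE receptor, and their 6 markers summed to 15.6 to 107 FPKM with palbociclib and at most 26.5 in any tumor of the other arms (4 of 6 higher at an unadjusted p under 0.05, median 2.86). For none of these lists was the part in the receptor levels tested.

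The other genes of the pathway gave the setting. Of 24 genes of Fc receptor signalling, 0 passed in either direction for the palbociclib effect and 11 were higher and 0 lower at an unadjusted p under 0.05 (limma), with a median of 0.45 on the log2 scale beside 0.06 over all genes. For this list and those that follow, the same 14.1% of all genes higher and 6.44% lower are the shares to set beside such counts. Lyn, a Src-family kinase that phosphorylates the receptors' motifs, was 8.92 to 12.98 FPKM in the vehicle arm and 13.4 to 17.7 in the palbociclib arm (0.44 ± 0.13, SE, log2, adjusted p = 0.123). Src (0.04 ± 0.07), the adaptor Dok1 (0.10 ± 0.15) and the ubiquitin ligase Cblb (-0.52 ± 0.28) were the other 3 most abundant genes of this list. Among 12 other Fc receptors, 4 were high enough to be tested, 3 of them higher at an unadjusted p under 0.05 and 0 past adjustment. Fcgrt, the neonatal receptor that recycles IgG, was 16.0 to 37.6 FPKM in the vehicle arm and 34.0 to 48.6 in the palbociclib arm (0.75 ± 0.21, adjusted p = 0.112). Fcrlb and Fcer1a, the IgE receptor's binding chain, were at most 3.55 and 3.51 FPKM (-0.08 ± 0.47 and 1.45 ± 0.61). Trim21, the cytosolic IgG receptor, was 3.70 to 7.35 FPKM in the vehicle arm and 9.09 to 12.7 in the palbociclib arm (0.73 ± 0.16, adjusted p = 0.0769).

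On the side of Cd47, 13 genes of the SIRP family and its partners had 0 past the adjusted threshold, 6 higher and 1 lower at an unadjusted p under 0.05, and a median of 0.53 (log2). Tyrobp, the adaptor of the activating SIRP beta proteins, was 61.7 to 97.1 FPKM in the vehicle arm and 76.8 to 123 in the palbociclib arm (0.66 ± 0.21, adjusted p = 0.143). Qpctl, the enzyme that modifies Cd47 so that Sirpa binds it, was 3.99 to 5.22 FPKM in the vehicle arm and 5.12 to 6.27 in the palbociclib arm (0.34 ± 0.09, adjusted p = 0.0962). Thbs1, a secreted ligand of Cd47, varied within arms, being 18.4 to 52.0 FPKM in the vehicle arm and 5.92 to 27.4 in the palbociclib arm (-1.23 ± 0.57, adjusted p = 0.253), and the integrin chain Itgav differed by -0.04 ± 0.21 (adjusted p = 0.937).

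Other signals that invite or prevent phagocytosis numbered 26, of which 21 were tested. Of these 0 passed, 7 were higher and 1 lower at an unadjusted p under 0.05, and the median was 0.32. B2m, the class I light chain that restrains macrophages through inhibitory receptors, was 827 to 1255 FPKM in the vehicle arm and 1412 to 1960 in the palbociclib arm (0.74 ± 0.17, adjusted p = 0.0807). Calr, an eat-me signal when it reaches the surface, differed by 0.18 ± 0.10 and its receptor Lrp1 by -0.32 ± 0.13, with adjusted p = 0.329 and adjusted p = 0.202. Axl, a receptor for dying cells, differed by -0.06 ± 0.08 (adjusted p = 0.678). Of 26 genes of the phagocytic machinery 0 passed and 10 were higher at an unadjusted p under 0.05 (14.1% of all genes were), with a median of 0.27. Its 4 most abundant genes, Lamp1, Cdc42, Arpc2 and Cyba, differed by 0.11, 0.10, 0.01 and 0.48 (log2), with adjusted p-values from 0.134 for the NADPH oxidase subunit Cyba to 0.972 for Arpc2.

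Further lists bear on what engages or induces these receptors. Immunoglobulin genes, of which only those of IgG encode ligands of these receptors, were low. Ighm was 1.56 to 6.43 FPKM in the vehicle arm and 3.11 to 10.2 in the palbociclib arm. The palbociclib effect (log2) was 1.58 ± 0.39 for Ighm, 1.83 ± 0.54 for Igkc, 1.77 ± 0.55 for Igha and 1.30 ± 0.47 for Ighg2c. Since Ighg2c was only 0 to 0.767 FPKM over the tumors, its estimate depends on the pseudocount of 0.1. Of the 8 immunoglobulin genes tested out of 11, 7 were higher at an unadjusted p under 0.05 and 0 passed, with a median of 1.44 (log2). Interferon response genes were the only list of those fitted here with a member past the threshold. Of the 11 genes reported here, Gbp2, a guanylate-binding protein, was higher for the palbociclib effect (1.79 ± 0.31, SE, log2, limma, adjusted p = 0.0462). The other abundant genes Isg15, Ifit3 and Ifit1 differed by 0.93 ± 0.26, 1.01 ± 0.25 and 0.72 ± 0.22. Of the 12 fits with 1 tumor left out, Gbp2 passed in the 3 without vehicle replicate 1, anti-PD-1 replicate 1 or combination replicate 2 and did not pass in the other 9, where any of the other tumors was left out, with differences of 1.61 to 2.08 (log2) and limma adjusted p-values of up to 0.146. Gbp2 did not pass without the 3 tumors with adipose or skin genes, which left 1 palbociclib tumor (adjusted p = 0.277), with the macrophage covariate (adjusted p = 0.456), with no filter (adjusted p = 0.0698), with no trend (adjusted p = 0.0686), with a pseudocount of 1 (adjusted p = 0.0523) or with quantile normalization (adjusted p = 0.0507). With all tumors, each of the 11 interferon genes had an unadjusted p under 0.05 and a positive difference in the palbociclib effect, which averages over both backgrounds. Their interaction was negative at an unadjusted p under 0.05 for 7 of the 11 (3.34% of all genes), with a median of -1.34 (log2) and 0 past adjustment. Isg15 was 182, 92.5 and 274 FPKM in the palbociclib arm and 35.2 to 65.8 in the vehicle arm, but 63.2, 109 and 82.3 with the combination and 65.0 to 91.9 with anti-PD-1. It thus differed by 1.78 ± 0.36 (SE, log2) between palbociclib and vehicle and by 0.09 ± 0.36 between combination and anti-PD-1, where the arms overlapped (limma, adjusted p = 0.0913 and adjusted p = 0.938, and adjusted p = 0.788 for the interaction). Gbp2 differed by 1.84 ± 0.44 and 1.73 ± 0.44 in the same 2 comparisons.

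The genes most like the receptors were found among 11180 other genes with a mean of at least 1 FPKM, by Pearson r over the 12 tumors. For the mean of the 5 receptor genes they were Cfp (properdin, r = 0.99), Clec4a1 (a C-type lectin, 0.99), Il10ra (the interleukin-10 receptor, 0.98), Tifab (0.98) and Rnf130 (0.98), and r stayed between 0.97 and 0.98 within arms. For Sirpa they were Nsd1, Abcg3, Nrp1, Nrros and Dock2, each at 0.98, with 0.97 to 0.98 within arms. For Cd47 they were 2300009A05Rik (0.92), Igf2r (0.88), Synrg (0.86), Zbtb7a (0.84) and Akap2 (0.82), with 0.85 to 0.96 within arms. Among the receptors themselves r ran from 0.79, between Fcgr2b and both Fcgr1 and Fcgr4, to 0.96, between Fcer1g and both Fcgr3 and Fcgr4. Sirpa correlated with the 5 receptor genes at 0.87 to 0.92 and Cd47 with them at -0.44 to -0.32. The points share libraries and tissue makeup, so these values are descriptions.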

How the data were processed

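Bulk RNA of 12 tumors was sequenced on an Illumina instrument. The authors deposited 1 table of FPKM per tumor with 34745 entries. HISAT2 and GRCm38/mm10 are named in the submitters' processing notes, while the counting tool, strand setting and annotation are not given in the sources used here. For 67 repeated symbols the entry with the highest mean was kept. Positions come from GENCODE M21 and promoters from RefSeq. Fragments per tumor were estimated from genes above 0 in at most 3 tumors, on the assumption that these mostly held 1 fragment. Exon lengths for this came from GENCODE M21, and the fragments behind each gene's value rest on the same lengths and assumption.

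The test was limma 3.58.1 (R 4.3.3), run as lmFit, contrasts.fit and eBayes (trended) on log2(FPKM + 0.1) of the 15350 genes whose mean FPKM reached 0.1. Each arm had its own mean, and p-values were adjusted by Benjamini-Hochberg across all genes, with 0.05 as the threshold. Folds on this scale understate low genes. The fit was tested on simulated data. Groups came from the labels, which give replicates as separate tumors. Ratios, correlations and promoter searches used Python 3.11.15 with numpy 2.4.6 and pandas 2.3.3, and figures matplotlib 3.10.9.

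The text names the 7 members, list genes past the threshold, the 4 most abundant genes of the pathway, immunoglobulin, macrophage, neutrophil and interferon lists, and the 5 genes most like the members. 1 gene of the interferon list is not reported here. The members and lists were chosen with earlier results of these data known. Alternatives were other pseudocounts, filters, TPM, quantile normalization, no trend, a replicate block, a macrophage covariate and leaving out tumors.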

Additional observations from a re-analysis of the deposited data

How the results depend on the processing

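With a pseudocount of 1 or of 0.01, with the filter set at 1 FPKM or removed, with TPM, quantile normalization, no trend, the replicate block, the macrophage covariate and without the 3 tumors with adipose or skin genes (chosen after seeing the data, with 1 palbociclib tumor left, which is assumed to vary like the other groups), 0 of 7 members passed in each of the 8 contrasts. Leaving out 1 tumor gave 0 to 3 members for the palbociclib effect and 0 for the other contrasts. The fewest estimated fragments behind a member's value were 116, for Fcgr4 in its lowest tumor, and the lowest median over the tumors was 435, for Fcer1g. All 28 arm means and 44 ratio means moved by less than 1 SD under quantile normalization.

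Genes passing for the palbociclib effect (48) were 11 with no filter, 0 with no trend, 0 with the macrophage covariate, 6 without the 3 tumors and 0 to 758 with 1 tumor left out. For palbociclib versus vehicle (22) they were 34 with TPM, 1 with quantile normalization, 6 with no trend, 1 with the covariate and 1 to 46 with 1 tumor left out. For the anti-PD-1 effect (0) they were 1 with the filter at 1, 3 with no filter, 6 without the 3 tumors and 0 to 1 with 1 tumor left out. For anti-PD-1 versus vehicle (0) they were 1 with no filter and 0 to 1 with 1 tumor left out. For the interaction (0) they were 1 with a pseudocount of 0.01, 2 with the filter at 1, 7 with no filter, 1 with TPM, 2 with quantile normalization, 2 with the covariate, 6 without the 3 tumors and 0 to 3 with 1 tumor left out. For combination versus vehicle (2) they were 5 with a pseudocount of 0.01, 1 with no trend, 1 with the covariate, 0 without the 3 tumors and 0 to 5 with 1 tumor left out. For combination versus palbociclib (1) they were 2 with the filter at 1, 5 with no filter, 2 with TPM, 8 without the 3 tumors and 1 to 4 with 1 tumor left out. For combination versus anti-PD-1 (1) they were 2 with no filter, 0 without the 3 tumors and 0 to 6 with 1 tumor left out. The cause was not tested.

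Same-numbered tumors deviated together in 7 of 18 pairs (r over 0.1, from -0.21 to 0.45). Differently numbered tumors of different arms gave values from -0.35 to 0.31, which overlap those of the same-numbered pairs. The values therefore do not decide whether the numbers pair the tumors. The labels do not say that they do, and the main fit did not use the numbers. With the replicate block, 129 genes passed for the palbociclib effect, 51 for palbociclib versus vehicle and 1 for combination versus vehicle, and 0 members passed in each contrast.

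Some member differences that had not passed changed sign (log2). With the macrophage covariate the palbociclib effect was -0.35 for Fcgr2b and 0.27 for Cd47, and palbociclib versus vehicle was -0.11 for Fcgr2b and 0.26 for Cd47. The anti-PD-1 effect was 0.20 for Fcgr1, 0.011 for Fcgr3, 0.071 for Fcgr4 and 0.10 for Sirpa. The interaction was -0.11 for Fcgr3 and 0.027 for Cd47, and anti-PD-1 versus vehicle was 0.0069 for Fcgr2b and 0.063 for Fcgr3. Combination versus vehicle was -0.58 for Fcgr2b, and combination versus palbociclib was 0.17 for Fcgr4 and 0.052 for Fcer1g. Combination versus anti-PD-1 was -0.047 for Fcgr1, -0.59 for Fcgr2b, 0.29 for Cd47 and -0.16 for Sirpa. Without the 3 tumors the interaction was -0.18 for Fcgr3, -0.41 for Fcgr4 and -0.049 for Fcer1g, and combination versus vehicle was -0.10 for Fcgr2b. With TPM anti-PD-1 versus vehicle was -0.025 for Sirpa.

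With 1 tumor left out the palbociclib effect ran from -0.19 to 0.11 for Cd47. The anti-PD-1 effect ran from -0.33 to 0.16 for Fcgr1, -0.43 to 0.021 for Fcgr3, -0.52 to 0.079 for Fcgr4 and -0.37 to 0.11 for Sirpa. The interaction ran from -0.61 to 0.31 for Fcgr2b, -0.21 to 0.58 for Fcgr3, -0.062 to 1.12 for Fcgr4, -0.31 to 0.29 for Cd47 and -0.80 to 0.16 for Sirpa. Palbociclib versus vehicle ran from -0.22 to 0.17 for Cd47. Anti-PD-1 versus vehicle ran from -0.15 to 0.83 for Fcgr1, -0.68 to 0.031 for Fcgr3, -1.03 to 0.047 for Fcgr4, -0.50 to 0.11 for Cd47 and -0.45 to 0.51 for Sirpa. Combination versus vehicle ran from -0.33 to 0.66 for Fcgr2b. Combination versus palbociclib ran from -0.45 to 0.31 for Fcgr3, -0.40 to 0.64 for Fcgr4, -0.29 to 0.20 for Fcer1g and -0.49 to 0.046 for Sirpa. Combination versus anti-PD-1 ran from -0.35 to 0.26 for Cd47.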
